A study of Mus musculus with 7 samples.

Results

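Integrin, cadherin and Fat genes encode families of adhesion proteins that hold cells to matrix and to each other, and they were followed here in group 2 innate lymphoid cells (ILC2s) with and without the transcriptional repressor Gfi1. A gene counted as a member when its symbol began with Itga or Itgb, was Cdh followed by a digit, or was Fat1, Fat2, Fat3 or Fat4. By this rule 56 of the 20144 genes with a symbol on the array were members, carried by 73 probes. They fall into 16 integrin alpha genes, 9 integrin beta genes, 4 genes named after an integrin without being a classical chain (Itgb1bp1, Itgb1bp2, Itgb3bp and Itgbl1), 23 cadherins and the 4 Fat genes. The cadherins so chosen are not all classical ones: Cdh13 is anchored by a lipid, and Cdh16, Cdh17 and Cdh23 have other architectures. The RefSeq table lists 58 such genes, and the remaining ones, Itga10 and Itgae, matched no probe and were not analysed here.

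The cells came from Gfi1+/+ (wild-type) mice and from Gfi1GFP/GFP (knockout) mice, in which a GFP cassette placed in the Gfi1 locus makes a loss-of-function allele that also reports Gfi1 promoter activity. Mice of both genotypes received daily IL-25 for 4 days, and on day 5 ILC2s were taken by sorting from mesenteric lymph nodes as lineage-negative cells bearing Sca-1, ICOS, CD127 and c-Kit. Each of the 4 wild-type samples pooled 3 mice and each of the 3 knockout samples pooled 6 mice. Both groups were then cultured for 6 days in IL-2 (50 ng/ml), IL-7 (10 ng/ml) and IL-25 (50 ng/ml) before RNA was taken, so every value describes expanded cells rather than cells fresh from the node. The age and sex of the mice were not given in the sources used here, and the allele is not described as restricted to a cell type. Each sample was hybridised in the Cy5 channel of one 2-colour Agilent array against a common mouse reference RNA in Cy3, and the measure throughout is the log2 ratio of sample over reference. No dyes were swapped, so a gene's ratio to the reference can hold a dye bias, which is common to both genotypes.

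Integrins are pairs of one alpha and one beta chain that bind matrix proteins or cell-surface ligands outside the cell and reach the actin cytoskeleton through talin, kindlin and vinculin inside it. On lymphocytes the beta 2 chain with the alpha L chain makes LFA-1, which binds ICAMs, and the alpha 4 chain with beta 7 or beta 1 makes the receptors for MAdCAM-1 and VCAM-1 used in homing to gut and inflamed tissue. Classical cadherins hold like cells together through calcium-dependent contacts tied to catenins, and the Fat proteins are giant atypical cadherins, of which Fat4 pairs with Dachsous and the family is linked to planar polarity and the Hippo pathway.

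The Gfi1 protein binds DNA at sites with the core letters AATC, so promoter sequence is shown for a pair of members: Itgb5, which was higher in the knockout and whose RefSeq entry starts at the outer bound of the gene, and Itga4, an abundant chain for which no difference was called. Each line is the 250 bases before the start in RefSeq's mouse build GRCm38.p6, 5′ to 3′ on the gene's strand, here the plus strand for both, at chr16:33829415-33829664 for Itgb5 and chr2:79255176-79255425 for Itga4. Capitals mark AATC or its complement GATT.

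Itgb5: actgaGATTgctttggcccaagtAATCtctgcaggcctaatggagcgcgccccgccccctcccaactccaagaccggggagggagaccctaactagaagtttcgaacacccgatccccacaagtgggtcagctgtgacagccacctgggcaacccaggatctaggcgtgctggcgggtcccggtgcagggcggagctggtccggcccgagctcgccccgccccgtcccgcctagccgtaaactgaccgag

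Itga4: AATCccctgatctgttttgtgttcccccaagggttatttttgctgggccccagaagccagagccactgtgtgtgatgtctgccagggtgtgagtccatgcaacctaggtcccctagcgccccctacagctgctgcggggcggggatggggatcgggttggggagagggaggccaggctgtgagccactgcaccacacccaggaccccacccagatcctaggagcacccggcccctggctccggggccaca

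The Itgb5 window holds 2 such matches and the Itga4 window 1. Of all 32851 promoter windows of the same length, 69.0% hold AATC on one strand or the other, so these letters are frequent and a match is a description, not a bound site. Of the 56 members 38 have an entry in the table. The entries of Fat1, Fat4 and Cdh10 start 17108, 2273 and 1460 bases inside the bounds of their genes and are not shown. The Fat1 window holds 0 matches of AATC or GATT, which says only that these letters are not in that window.

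Sample signal stood well above background for 67.4% to 80.9% of probes, depending on the array. Pairs of wild-type arrays had a Pearson correlation of 0.979 to 0.989 across genes, pairs of knockout arrays 0.969 to 0.98, and mixed pairs 0.942 to 0.969. All 13 genes of an ILC2 list were well above background on all 7 arrays, and 4 of them were called, beside 7.51% of all tested genes. Gata3 was lower by 0.93 (adjusted p = 0.0101 by limma) and Il1rl1 by 1.89. Ly6a, which encodes the Sca-1 used in the sort, was lower by 0.72, and Il17rb was higher by 1.85. Other tested probes moved less, by -0.76 and -1.14 for Il1rl1 and by 0.48 for Il17rb. The sample channel of Il1rl1 alone moved by -1.40 and its reference channel by 0.48. The summed sample signal of the list was 747000 to 1030000 in wild type and 496000 to 643000 in knockout, without overlap, and the part of this shift in the differences below was not tested. The targeted gene itself gave Gfi1 log2 ratios of 1.90, 1.87, 2.36 and 1.96 on the wild-type arrays and 4.29, 4.25 and 4.29 on the knockout arrays, a difference of 2.25 (SE 0.12). Where this Gfi1 probe lies relative to the GFP cassette is not given in the sources used here, so a higher ratio in the knockout neither checks the labels nor goes against them. The arrays lay on 3 slides, each scanned as a set: slide 1 held wild-type array 4 and knockout array 1, slide 2 held wild-type array 1 and knockout arrays 2 and 3, and slide 3 held wild-type arrays 2 and 3. For called members, and for Itgb7, Itgal and Cdh17, differences are therefore also given for slides 1 and 2 singly, and for called members from a fit that blocks on slide. According to the labels every sample is a separate pool of animals, so p-values measure the spread between such pools. Since the cells were measured in bulk, a lower ratio from fewer cells that transcribe a gene and one from less RNA per cell cannot be told apart.

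Detection separated the family before any comparison. Sample signal exceeded background clearly on all 7 arrays for 31 of the 56 members (55.4%), on some arrays for 16 and on none for 9, whereas 73.8% of all genes with a symbol were above background on all 7. Members not well above background on any array were Cdh1, the epithelial E-cadherin, together with Cdh4, Cdh19, Cdh20, Cdh23, Cdh24, Itgad, Itgb2l and Itgbl1. Cdh1 was above background in the reference channel on all 7 arrays, so its probe gave signal from other RNA. Itgax, the CD11c chain of dendritic cells, passed on 1 wild-type array and no knockout array, and Cdh5, the endothelial VE-cadherin, likewise on 1 and 0. Itga2 passed on 2 knockout arrays and no wild-type array, and Itgb6 on 1 and 0. For the 6 members with no such array in only one group, among them these 4, a lower bound of the fold reached no more than 1.14. In all, 17 members were too dim to test and 39 were tested.

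**Figure D1:**
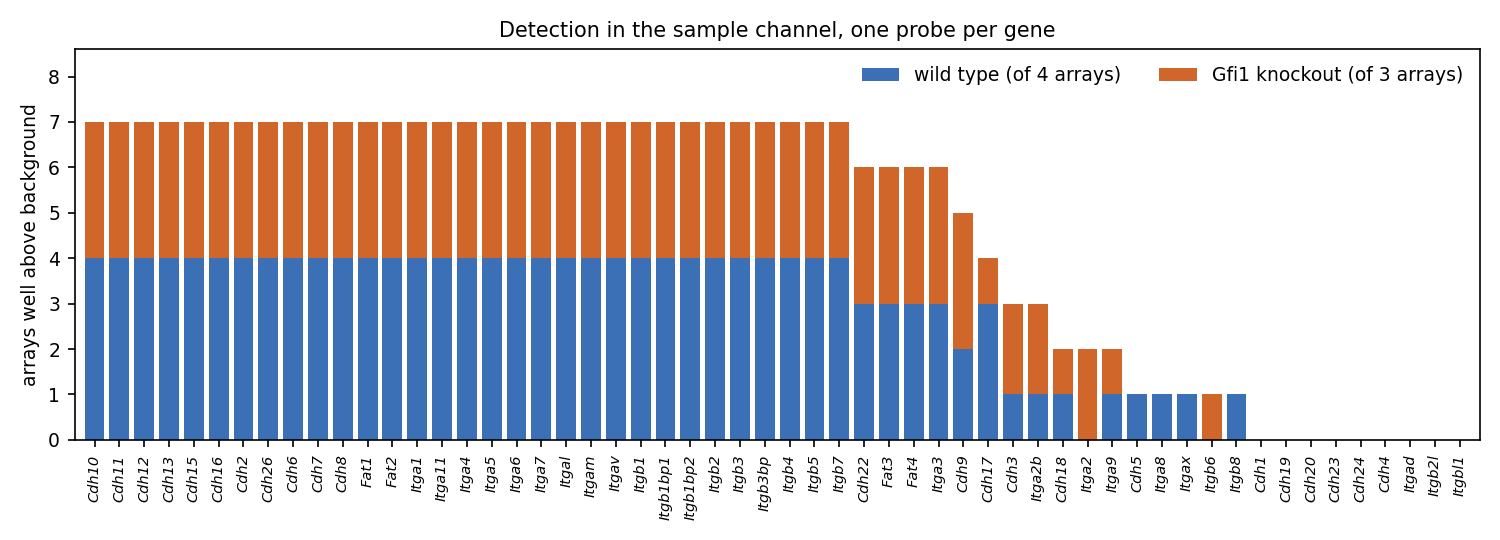
Number of arrays (vertical axis) on which each of the 56 members (horizontal axis, one probe per gene) was well above background in the sample channel, with wild-type arrays (of 4) stacked under knockout arrays (of 3). The bars reach all 7 arrays for 31 members and are absent for 9.

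Among the 39 tested members 5 were higher in the knockout and 2 lower at a limma adjusted p under 0.05, and 32 were not called. The higher genes were Fat1, Cdh2, Fat4, Itgb5 and Cdh10, and the lower ones Itgb3 and Itga6. Over all 25368 tested genes 3.27% were called higher and 4.23% lower, which is 7.51% in either direction, against 12.8% and 5.13% of the tested members, or 17.9%. The 25368 include genes without a symbol, 16700 having one as every member does, and the share among the 16700 was not computed. Groups did not overlap for 11 of the 39 members (28.2%), against 18.3% of all tested genes. The median difference over the members was -0.02 on the log2 scale, beside -0.01 over all tested genes, so the family as a whole was centred near no difference and a few genes stood out from it. At a required change of at least 0.5 on the log2 scale, 2 members, both higher, were still called.

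**Figure D2:**
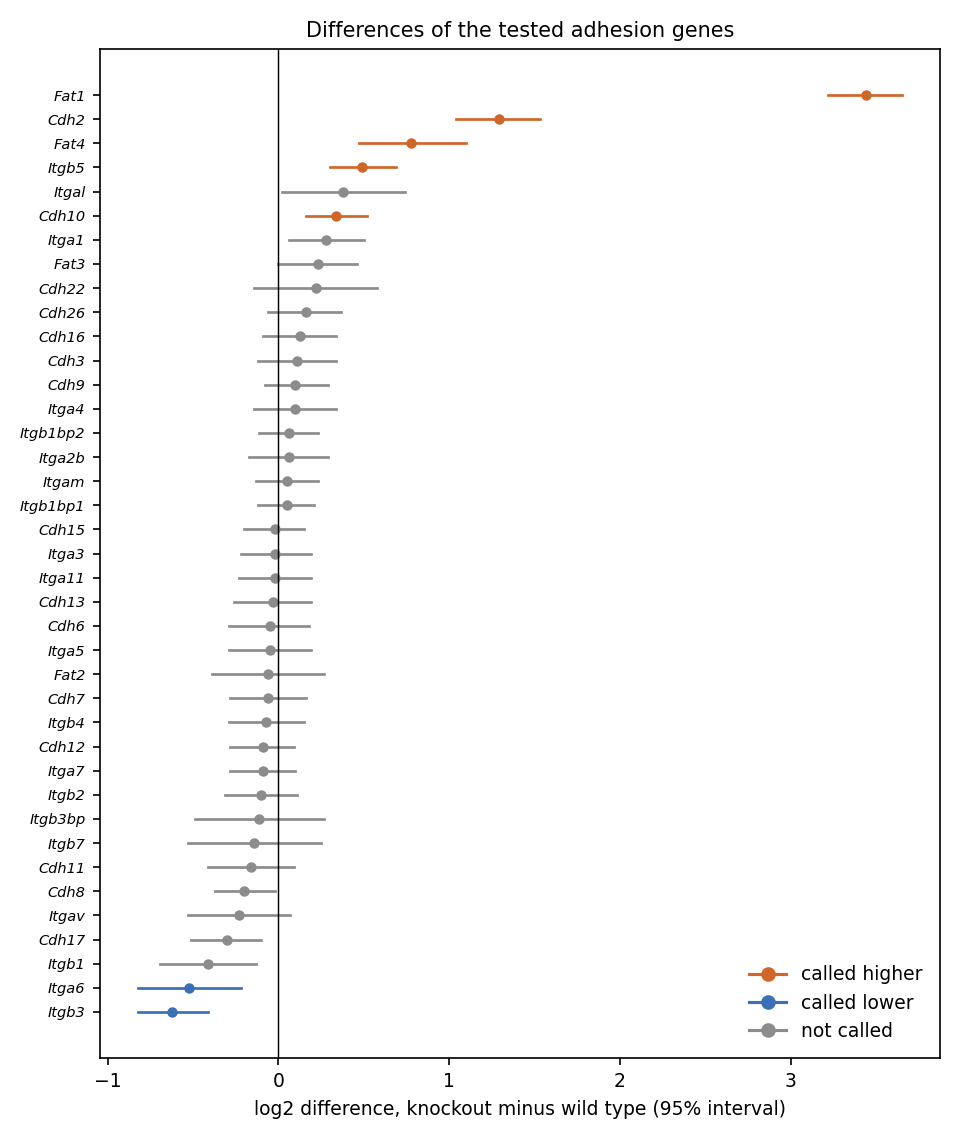
Log2 difference, knockout minus wild type (horizontal axis), with its 95% interval for each of the 39 tested members (vertical axis), coloured by whether it was called higher, called lower or not called. Fat1 at 3.44 and Cdh2 at 1.29 lie apart from the other members, which lie between -0.62 and 0.78.

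The lymphocyte integrin chains Itga4, Itgb7, Itgb2 and Itgal lay above the reference in both genotypes, and no difference was called for them. Itga4, the alpha 4 chain, had log2 ratios of 4.29, 4.15, 4.42 and 4.19 in wild type and 4.41, 4.50 and 4.17 in knockout. The groups overlapped, and the difference was 0.10 (95% interval -0.14 to 0.34, adjusted p = 0.698 by limma). Its wild-type mean was 19.2-fold above the reference. A second Itga4 probe passed the background criterion on 2 knockout arrays only and was not tested. Itgb7, the beta 7 chain that pairs with alpha 4 in the gut-homing receptor, gave 3.33, 3.66, 3.96 and 3.94 in wild type and 3.27, 3.75 and 3.73 in knockout, again overlapping (difference -0.14, 95% interval -0.53 to 0.25). Slide 1 alone gave an Itgb7 difference of -0.67 and slide 2 alone 0.41, of opposite sign. Both partners of this receptor were thus measured at high ratio without a called difference.

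Itgb2, the shared beta 2 chain of the leukocyte integrins, had ratios of 2.97, 2.94, 3.24 and 3.02 in wild type and 2.88, 2.92 and 3.03 in knockout (difference -0.10, 95% interval -0.31 to 0.11). Its partner Itgal, the alpha L chain of LFA-1, gave 1.59, 1.68, 2.10 and 1.90 in wild type against 1.88, 2.27 and 2.45 in knockout. The Itgal groups overlapped, with the highest wild-type array above the lowest knockout array. The difference of 0.38 (SE 0.16, 95% interval 0.02 to 0.74) did not pass (adjusted p = 0.219 by limma). Slide 1 gave an Itgal difference of -0.02 and slide 2 of 0.77. The second Itgal probe differed by 0.50 (adjusted p over all probes 0.144 by limma). Itgam, the alpha M chain of myeloid cells, lay below the reference in both groups by its brightest probe (-0.57 ± 0.10, SD, n = 4, and -0.52 ± 0.01, SD, n = 3). The other tested Itgam probes averaged 0.06 and 0.39 in wild type and 0.06 and 0.03 in knockout, so the side of the reference depended on the probe. The 3 tested probes differed between genotypes by 0.05, -0.00 and -0.36, none of them called. For the last the adjusted p over all probes was 0.0524 by limma. Itgad and Itgax were too dim to test, so of the beta 2 partners only Itgal and Itgam carried a value.

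Itgb3, the beta 3 chain, was lower in the knockout while remaining far above the reference. Beta 3 pairs with alpha V in the vitronectin receptor and with alpha IIb in the fibrinogen receptor of platelets. Its log2 ratios were 3.97, 4.28, 4.17 and 4.11 in wild type and 3.50, 3.46 and 3.57 in knockout. Every knockout array lay below every wild-type array. The difference was -0.62 (SE 0.09, 95% interval -0.82 to -0.41), 1.54-fold lower, with an adjusted p of 0.00374 by limma. Itgb3 fell from 17.5-fold to 11.4-fold above the reference. The sample channel alone moved by -0.61 and the reference channel by 0.01. Slides 1 and 2 taken singly gave Itgb3 differences of -0.61 and -0.45, and blocking on slide gave -0.52, which no longer passed (adjusted p = 0.0733 by limma; 0.00293 to 0.0733 over 21 alternatives). A second Itgb3 probe went from 1.77 to 0.96, a difference of -0.81 in the same direction that did not pass over all probes (adjusted p = 0.14 by limma).

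The alpha partners of beta 3 were not called. Itgav, the alpha V chain, had ratios of 0.62, 0.50, 0.79 and 0.97 in wild type and 0.44, 0.31 and 0.72 in knockout, with overlapping groups and a difference of -0.23 (95% interval -0.53 to 0.07). Its probes disagreed on the level: the brightest averaged 0.72 in wild type and another -3.99, with a difference of -0.06 at the latter. Itga2b, the platelet alpha IIb chain, was above background on 1 wild-type and 2 knockout arrays and differed by 0.06 (95% interval -0.17 to 0.29). Its probe was dim, with sample log2 signals of 6.19 to 6.78, so this interval does not exclude a larger difference. Over the 15 alternatives that tested Itga2b the difference ran from -0.05 to 0.49, never called (adjusted p 0.345 to 0.982 by limma). Of the platelet list, Gp6 was above background on no array, no gene was called, and the summed sample signal was 1190 to 1270 in wild type and 1230 to 1290 in knockout, with overlapping ranges.

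Itgb5, the beta 5 chain and another partner of alpha V, moved opposite to Itgb3. Its ratios were -1.18, -1.21, -1.10 and -0.96 in wild type and -0.67, -0.61 and -0.57 in knockout. The groups did not overlap. The difference was 0.49 (SE 0.09, 95% interval 0.30 to 0.69), 1.41-fold higher, with an adjusted p of 0.00832 by limma, and the sample channel alone moved by 0.43. Slides 1 and 2 gave 0.29 and 0.59. Blocking on slide gave 0.46, which did not pass (adjusted p = 0.13 by limma; 0.0068 to 0.13 over 21 alternatives). Itgb6 and Itgb8, which also pair with alpha V, were well above background on 1 array each and were not tested.

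**Figure D3:**
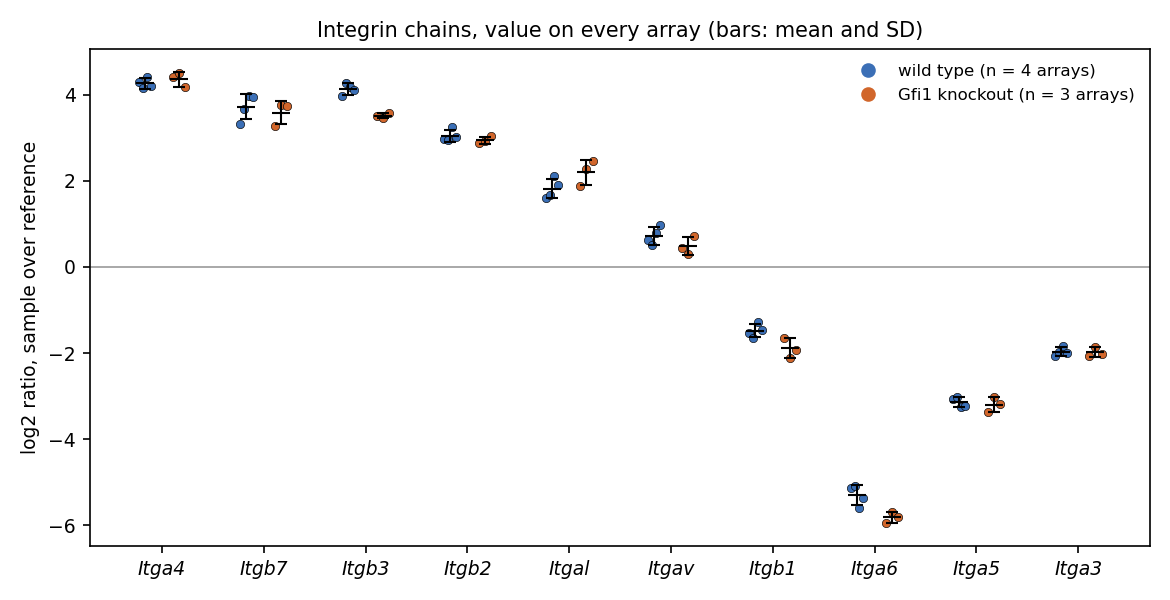
Log2 ratio of sample over reference (vertical axis) on every array for 10 integrin chains (horizontal axis), wild type (4 arrays) beside knockout (3 arrays), with mean and SD as bars. Itga4, Itgb7, Itgb3, Itgb2 and Itgal lie above the reference line in both groups, and of the 10 chains Itgb3, Itgb1 and Itga6 show groups that do not overlap.

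Itgb1, the beta 1 chain shared by most matrix-binding integrins and by the alpha 4 beta 1 receptor for VCAM-1, gave -1.54, -1.65, -1.29 and -1.47 in wild type and -1.65, -2.11 and -1.92 in knockout. To 2 decimals the lowest wild-type and the highest knockout array coincide, and unrounded the groups just fail to overlap. Its difference was -0.41 (SE 0.13) and was not called (adjusted p = 0.0922 by limma), and without knockout array 1 it was -0.53 and passed (adjusted p = 0.033 by limma; 0.033 to 0.45 over 21 alternatives). The second Itgb1 probe differed by -0.51 (adjusted p over all probes 0.226 by limma).

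Among the alpha partners of beta 1, Itga6, the laminin-binding alpha 6 chain, was the one called. Its ratios lay far below the reference, at -5.13, -5.09, -5.61 and -5.36 in wild type and -5.95, -5.69 and -5.80 in knockout. The groups did not overlap, although wild-type array 3 at -5.61 and knockout array 2 at -5.69 lay close. The difference was -0.52 (SE 0.13, 95% interval -0.82 to -0.22), 1.43-fold lower, with an adjusted p of 0.0477 by limma. This call was the least firm of the 7. It was lost in 14 of 21 alternatives (adjusted p 0.0152 to 0.161 by limma), among them 6 of the 7 that left out 1 array. The direction held in all of these, with differences from -0.62 to -0.45, and slides 1 and 2 gave -0.59 and -0.62.

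Itga5, the alpha 5 chain of the fibronectin receptor, lay at -3.15 ± 0.11 (SD, n = 4) in wild type and -3.20 ± 0.18 (SD, n = 3) in knockout. Itga3, another laminin-binding chain, lay at -1.97 ± 0.10 (SD, n = 4) and -1.99 ± 0.12 (SD, n = 3). For each gene the groups overlapped. The 95% interval of the difference ran from -0.29 to 0.19 for Itga5 and from -0.22 to 0.19 for Itga3. Both probes were dim, with sample log2 signals of 6.51 to 6.78 for Itga5 and 6.44 to 6.64 for Itga3. Itga3 was well above background on 3 of 4 wild-type arrays. Cdh19, not well above background on any array, reached 6.65. The offset shrinks ratios of such dim probes, so these intervals do not exclude a larger difference. With the scanner's own ratio, to which no offset is added, the differences were -0.04 for Itga5 and 0.19 for Itga3, neither called. Itga1, the collagen-binding alpha 1 chain, gave 0.05, -0.21, -0.11 and 0.14 in wild type and 0.20, 0.25 and 0.30 in knockout. The groups did not overlap, yet the ratio difference of 0.28 (adjusted p = 0.141 by limma) came with a difference of -0.47 in the reference channel, and the sample channel alone differed by -0.19. The other tested alpha genes, Itga7 and Itga11, lay below the reference and differed by -0.09 and -0.02.

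The genes named after integrins without being chains showed no called difference. Itgb1bp1, whose product ICAP1 binds the beta 1 tail and competes with talin, differed by 0.05 at its brightest probe and 0.02 at the other, although these probes lay at -0.22 and 1.61 relative to the reference in wild type. Itgb3bp, a centromere protein also called CENP-R, went from -2.16 ± 0.10 (SD, n = 4) to -2.27 ± 0.41 (SD, n = 3), and knockout array 3 at -2.74 was the low one. Of the 8 members with more than 1 tested probe, Itgav, Itgb1bp1, Itgb3 and Itgb3bp had probes more than 1 apart in the wild-type mean log2 ratio. There the level depended on the probe chosen. Among called members only Cdh2 and Itgb3 had a second tested probe, which moved in the same direction. The other called members rest on 1 probe each.

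Most tested cadherins lay at or below the reference, and 2 of the 15 were called, both higher in the knockout. Cdh2, the N-cadherin of neural, muscle and mesenchymal cells, had ratios of -3.69, -4.04, -3.72 and -3.60 in wild type and -2.46, -2.54 and -2.42 in knockout. All 3 knockout arrays lay more than 1 unit above every wild-type array. The difference was 1.29 (SE 0.11, 95% interval 1.04 to 1.53), 2.44-fold higher, with an adjusted p of 0.000207 by limma. It came from the sample channel, which moved by 1.27, while the reference channel moved by -0.02. A second Cdh2 probe gave a difference of 1.56 (adjusted p over all probes 0.00143 by limma). Cdh2 differed by 1.14 on slide 1, by 1.21 on slide 2 and by 1.18 when slide was blocked (adjusted p = 0.00795 by limma). Even so it stayed below the reference, from 13.5-fold below in wild type to 5.58-fold below in knockout.

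Cdh10, a type II cadherin known from the nervous system, gave 0.08, 0.23, 0.13 and 0.13 in wild type and 0.40, 0.58 and 0.46 in knockout, with no overlap. The difference was 0.34 (SE 0.08), 1.27-fold higher (adjusted p = 0.0339 by limma). Its reference channel was well above background on 1 of 7 arrays, so the ratio compares a dim signal with one near background. With the scanner's own ratio the Cdh10 difference was 1.35, and the call was lost in 8 of 21 alternatives, 5 of them leaving out 1 array (adjusted p 0.00198 to 0.2 by limma over the 21). Blocking on slide gave 0.37, not called (adjusted p = 0.2 by limma), and slides 1 and 2 gave 0.28 and 0.44.

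Cdh17, the liver-intestine cadherin that B cells also carry, was among the cadherins not called. It gave 0.60, 0.56, 0.67 and 0.38 in wild type and 0.27, 0.32 and 0.17 in knockout, without overlap. Its probe was well above background on 3 wild-type arrays and 1 knockout array. The reference channel was well above background on no array, so the Cdh17 ratios are taken against a signal near background. The Cdh17 difference was -0.30 (adjusted p = 0.0863 by limma). With median centring in place of loess it was -0.55 and passed (adjusted p = 0.038 by limma, and 0.038 to 0.495 over 20 alternatives). With the scanner's own ratio the Cdh17 difference was -1.36 and did not pass (adjusted p = 0.142 by limma), and slides 1 and 2 gave -0.12 and -0.35. Cdh8, a type II cadherin, gave 0.30, 0.29, 0.24 and 0.42 in wild type against 0.06, 0.13 and 0.16 in knockout, also without overlap, and its difference of -0.20 was not called (adjusted p = 0.207 by limma). Cdh11, the cadherin of fibroblasts and osteoblasts, gave 0.02 ± 0.18 (SD, n = 4) and -0.14 ± 0.09 (SD, n = 3) with one probe, while its other probe was above background on no array in the sample channel. The 13 uncalled cadherins differed by -0.30 to 0.22.

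The Fat genes held the largest difference of the family. Fat1, a giant atypical cadherin that binds Ena/VASP proteins and feeds into actin and Hippo signalling, had log2 ratios of -4.34, -4.13, -4.38 and -4.33 in wild type and -0.96, -0.72 and -0.90 in knockout. The 4 wild-type arrays lay close together and the 3 knockout arrays more than 3 units above them. The difference was 3.44 (SE 0.09, 95% interval 3.22 to 3.65), 10.8-fold higher, with an adjusted p of 2.06e-07 by limma. Fat1 went from 19.6-fold below the reference in wild type to 1.82-fold below it in knockout. Its sample channel moved by 3.45 and its reference channel by 0.01. Slide 1 alone gave 3.37, slide 2 alone 3.52, and the fit blocked on slide 3.46 (adjusted p = 0.000168 by limma). Over 21 alternatives it ranged from 3.36 to 3.63 and passed in each. A change of at least 2-fold upward was called for 0.796% of all tested genes, and among the members Fat1 and Cdh2 reached it. The array holds 1 Fat1 probe, so no other part of the transcript was measured.

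Fat4, the partner of Dachsous ligands, was also higher, by a smaller amount. Its ratios were -0.72, -0.91, -0.72 and -1.0 in wild type and -0.37, -0.02 and 0.23 in knockout, where they spread more widely. The groups did not overlap, and the difference was 0.78 (SE 0.14, 95% interval 0.47 to 1.1), 1.72-fold higher, with an adjusted p of 0.00978 by limma. The sample channel moved by 0.86. The Fat4 probe was dim in wild type, with sample log2 signals of 6.39 to 6.65, and well above background on 3 of 4 wild-type arrays. Its fold is thus taken against a wild-type signal near background. The Fat4 difference was 0.62 on slide 1, 0.83 on slide 2 and 0.74 when slide was blocked (adjusted p = 0.0423 by limma). With the scanner's own ratio, to which no offset is added, it was 1.95. Without both wild-type array 4, whose flagged spots shifted its background model, and knockout array 3, whose scanner report asked for evaluation, the difference was 0.59 and did not pass (adjusted p = 0.0522 by limma; 0.00303 to 0.0522 over 20 alternatives).

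Fat2 and Fat3 were not called. Fat2 lay above the reference at 0.61, 0.60, 1.1 and 0.94 in wild type and 0.98, 0.62 and 0.65 in knockout, with overlapping groups and a difference of -0.06 (95% interval -0.39 to 0.27). Fat3, on a dim probe, gave 0.09, 0.08, -0.18 and 0.21 against 0.19, 0.31 and 0.32, a ratio difference of 0.23 (adjusted p = 0.268 by limma) with -0.36 in the reference channel and -0.13 in the sample channel. Whether Fat1 and Fat4 differed from Fat2 and Fat3 in their change was not tested.

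**Figure D4:**
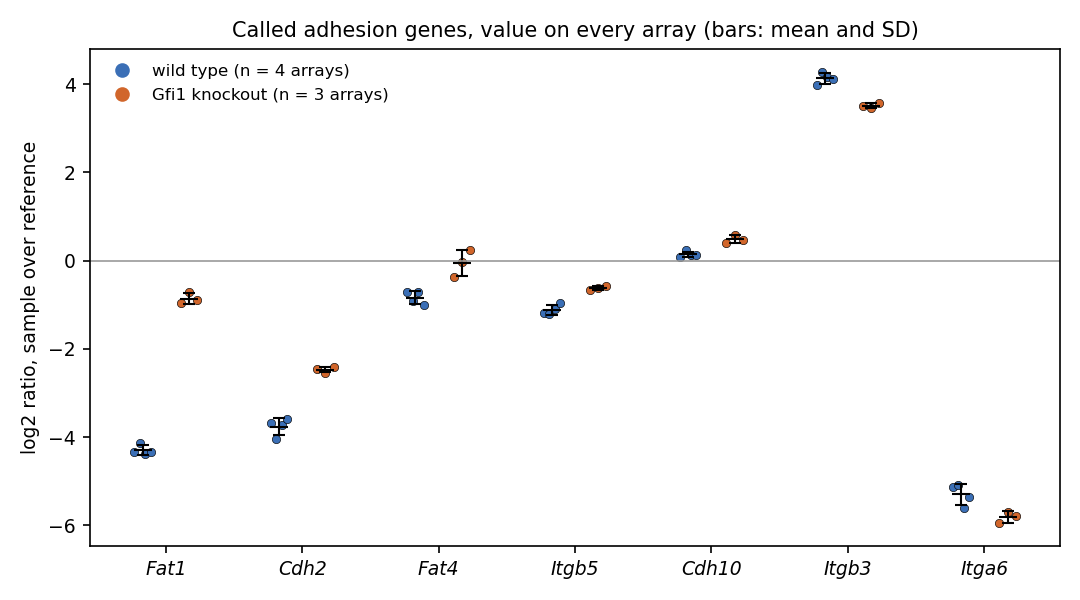
Log2 ratio of sample over reference (vertical axis) on every array for the 7 called members (horizontal axis), wild type (4 arrays) beside knockout (3 arrays), with mean and SD as bars. Fat1 moves from between -4.38 and -4.13 to between -0.96 and -0.72, and in none of the 7 genes do the groups overlap.

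Because Cdh2, Fat1 and Fat4 are known from non-haematopoietic cells, markers of other cells were read beside them. The counts of called markers stand beside 7.51% called over all tested genes. Of the fibroblast and stromal list 9 of 10 genes were above background on all 7 arrays and 1 of 9 tested genes was called, Pdgfrb, the PDGF receptor beta chain, which was higher by 1.78 (adjusted p = 0.000299 by limma). The summed sample signal of that list, Pdgfrb included, was 3430 to 4060 in wild type and 4120 to 4400 in knockout, without overlap. In the sample channel Pdgfrb moved by 1.86. Col1a1, Col1a2, Col3a1, Dcn, Lum, Cdh11, Ccl19 and Pdpn, none of them called, moved there by -0.22 to 0.03, and Pdgfra was not tested. In the epithelial list 1 of 6 tested genes was called, Krt18, higher by 0.35 (adjusted p = 0.0282 by limma), and Cdh1 was above background on no array. The epithelial list summed to 3190 to 3390 in wild type and 3730 to 4120 in knockout, also without overlap. In the sample channel Krt18 moved by 0.43, while Epcam, Krt8, Krt19, Cldn4 and Cdh17, none of them called, moved by -0.35 to 0.02. Endothelial sums were 2650 to 3120 in wild type and 2480 to 2670 in knockout, with Tek, Tie1 and Emcn above background on no array. Neither T cell nor B cell, NK cell or myeloid lists held a called gene. The summed NK cell signal was nevertheless 845 to 898 in wild type and 954 to 1030 in knockout, again without overlap, with Ncr1 above background on no array. Each sum takes in all genes of its list on the array, dim ones included. Summed signals overlapped between genotypes for T cells (6970 to 12300 and 7190 to 16300), B cells (15900 to 19500 and 13800 to 16800) and myeloid cells (3400 to 4000 and 3890 to 4020). Of the mast cell list 2 of 4 tested genes were called, Cpa3 and Hdc, lower by 0.51 and 0.36. Fcer1a and Ms4a2 were above background on no array. The part of such cells in the differences of Cdh2, Fat1 and Fat4 was not tested.

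The proteins that work with these receptors were read from 5 lists, together 152 genes on the array and 138 tested, of which 8 were higher and 15 lower (16.7% called, against 7.51% of all tested genes, or 3.27% higher and 4.23% lower). In the list of integrin activators and adaptors 2 of 45 tested genes were higher and 6 lower (17.8%), and the median difference was -0.06, beside -0.01 over all tested genes. Vcl, vinculin, which links talin to actin, gave -2.72, -2.85, -2.55 and -2.34 in wild type and -3.45, -3.40 and -3.32 in knockout, a difference of -0.77 without overlap (adjusted p = 0.00483 by limma). Cytip, which binds cytohesin and dampens LFA-1 adhesion, fell from 4.32, 4.33, 4.64 and 4.32 to 3.70, 3.39 and 3.67, a difference of -0.82 (adjusted p = 0.003 by limma). Also lower were Sipa1l1, a GTPase-activating protein for Rap, by 0.97, the focal adhesion protein Zyx by 0.58, the small GTPase Rap1b by 0.44 and the adaptor Skap1 by 0.41. Rasgrp2, the exchange factor that activates Rap1 for integrin activation in blood cells, was higher by 0.68 (adjusted p = 0.00806 by limma), with 1.0 at a second probe. Skap2, another adaptor, was higher by 0.44. Of the other genes of the list, Rap1gap, Sipa1, Rasgrp1 and Apbb1ip were not called, with differences of -0.23, 0.05, -0.02 and -0.14.

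Among 14 tested membrane partners of integrins 2 were higher and 3 lower (35.7%), with a list median of -0.17. The tetraspanins Cd9 and Cd81 were higher by 0.76 and 0.58. Slc3a2, the CD98 heavy chain that binds beta tails, had ratios of 0.96, 0.98, 0.90 and 0.85 in wild type and 0.38, 0.30 and 0.24 in knockout and was lower by 0.61 (adjusted p = 0.0017 by limma). Bsg, basigin, was lower by 0.97. Nrros, which holds latent TGF-beta on the cell surface, was lower by 0.42.

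Of 36 tested integrin ligands 1 was higher and 4 were lower (13.9%), and the list median was -0.04. Lama5, the laminin alpha 5 chain, to which alpha 6 integrins bind, showed the widest gap, with 0.68, 0.44, 0.27 and 0.07 in wild type and -1.86, -1.58 and -1.69 in knockout. Its difference was -2.08 (SE 0.14), 4.21-fold lower, with an adjusted p of 6.4e-05 by limma. Tgfb3, whose latent form is bound by alpha V integrins, was lower by 1.1, Emilin1 by 0.49 and the junctional molecule F11r by 0.43. Npnt, nephronectin, was higher by 0.46 at its brightest probe and by 0.01 at the other.

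Of 18 tested cadherin partners 2 were higher and 1 lower (16.7%), with a median of -0.05. Among them Tjp1, the scaffold ZO-1, was higher by 0.80 (adjusted p = 0.00185 by limma), the cadherin-related gene Cdhr1 higher by 0.66, and Pkp2, the desmosomal plakophilin 2, lower by 0.97. The Cdhr1 probe was well above background on 3 of 4 wild-type arrays. Its sample channel moved by 0.48 and its reference channel by -0.17, and the call was lost with the sample channel alone. Pkp2 was well above background on 2 of 3 knockout arrays. Among the 28 tested genes of Fat partners and the Hippo pathway, with a median of -0.06, 2 were called (7.14%), a share near the 7.51% of all tested genes. Tead1, a DNA-binding partner of YAP, was higher and Sav1, the scaffold of the MST kinases, lower by 0.58. Tead1 gave -3.81, -3.89, -4.58 and -4.32 in wild type and -2.19, -2.32 and -2.51 in knockout, a difference of 1.81, 3.51-fold higher (adjusted p = 0.000489 by limma). Its other tested probes differed by 0.01 and -0.07, so the Tead1 call rests on one probe.

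With slide blocked, Lama5, Slc3a2, Tead1, Tjp1 and Vcl remained called and the other 18 of the 23 partner genes were not. Whichever single array was left out, 14 of the 23 were called, whereas Cd81, Emilin1, Npnt, Rap1b, Sav1, Sipa1l1, Skap1, Skap2 and Zyx lost their call at least once.

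**Figure D5:**
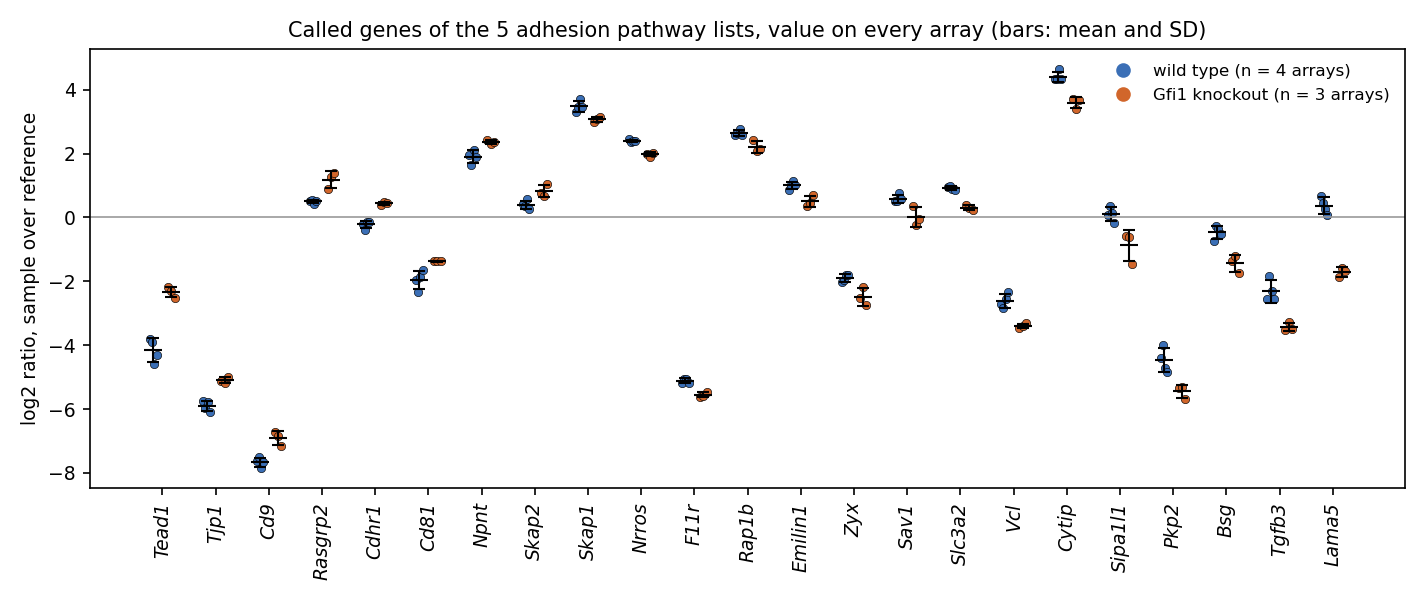
Log2 ratio of sample over reference (vertical axis) on every array for the 23 called partner genes (horizontal axis, ordered from the highest to the lowest difference), wild type (4 arrays) beside knockout (3 arrays), with mean and SD as bars. Tead1 at the left is 1.81 higher in the knockout and Lama5 at the right 2.08 lower.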

How the data were processed

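The deposited files hold, per the file headers, median foreground and local background intensity values of each spot from Agilent Feature Extraction 11.0.1.1 (10.7.3.1 in the submitters' processing notes). The deposited series table gives log2 ratios, which equal the scanner's log10 ratio turned to log2 (largest difference 0.0005), not centred, with column medians of 0.16 to 0.25. The scanner's deposited log10 ratio is background-subtracted and dye-normalised, per the file headers, and both were alternatives.

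With limma 3.58.1 in R 4.3.3, intensities were corrected by normexp (offset 50) and normalised by loess within arrays (controls at weight 0), with no step between arrays. Before this, 2597 spots flagged as outliers were left out. Probes were named by accession through RefSeq: 26581 of 39429 have a symbol. Spots of one probe were averaged and the probe with the brightest mean sample signal stood for its gene, which can choose one transcript form where probes disagree. A gene was tested if well above background in the sample channel on at least 3 of 7 arrays with at least 2 values per group. The 39 tested members lack no value. Fits used lmFit and eBayes without covariates, and p-values were adjusted by Benjamini-Hochberg over all 25368 tested genes. An offset of 50 shrinks ratios of dim probes. Precision is limited by 4 and 3 arrays. Fold bounds for dim groups used single channels after Aquantile.

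Every called member was named with values, together with a list of leukocyte integrins and of partners of called members, and up to 8 called genes of each partner list. Members and lists were chosen with earlier results of these data known. Scripts were tested on simulated data, and promoter windows come from RefSeq's GRCm38.p6.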

Additional observations from a re-analysis of the deposited data

Results flagged for a closer look

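Among the 39 tested members, 1 had a wild-type array far from the other 3. For Cdh16, the kidney cadherin, wild-type array 2 gave -0.16 while the others gave -0.39, -0.42 and -0.38. The gap to the nearest array was 0.842 of the range, past the critical value of the Dixon test for 4 samples. Chance flags about 1 in 20 such groups. Cdh16 was not called (difference 0.13, limma adjusted p = 0.547), and the knockout arrays gave -0.16, -0.13 and -0.34.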

How the results depend on the processing

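Against 5 members higher, 2 lower and 1904 genes called, blocking on slide left 3, 0 and 478, and a required log2 change of 0.5 left 2, 0 and 210. Leaving out wild-type array 4 and knockout array 3 together left 3, 1 and 1099. The replicate block, which pairs replicates 1 to 3 of both groups by number, left 4, 1 and 1069. Nothing in the labels pairs the numbers, and deviations of same-numbered arrays correlated at 0.04, 0.24 and 0.02, with 1 of 3 wild-type arrays closest to its own number. One lower member, Itgb3, was left with the scanner's ratio, the series table, the sample channel alone and slide as a random block (1 each). Leaving out 1 array at a time gave 4 to 5 higher, 1 to 2 lower and 1252 to 1887 calls, below 1904 by over 1.5 times without wild-type array 4 (1265) or knockout array 2 (1252). Median centring turned the share of higher calls from 43.6% to 55.4%. Over the scaling alternatives the median difference of all genes lay between -0.03 and 0.00.

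Fat1 and Cdh2 kept direction and call in all 21 alternatives. No called member reversed. Reversals concerned uncalled members. Against 0.05, Itgam was -0.12 by sample channel, -0.10 by the mean of probes and -0.01 with slide blocked. Itga1 was -0.19 and Fat3 -0.13 by sample channel. Itga3 was 0.19 by the scanner's ratio, 0.19 in the series table and 0.04 with slide blocked. Itga2b was -0.05 with no spot left out, Fat2 0.03 with slide blocked and 0.03 without both arrays, and Itgb3bp 0.15 without both. With 1 array left out, Itgb7 ranged from -0.27 to 0.02, Itga3 from -0.08 to 0.03, Itga5 from -0.14 to 0.04, Itgb3bp from -0.25 to 0.13 and Fat2 from -0.18 to 0.03. The cause of these moves was not tested. Dim members, 17 of 56, allow no statement on a difference.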
